A study of Xenopus laevis with 111 samples.

Results

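The injury effect, the difference between a transected and a sham library, was followed through the first 2 h after surgery, and the question was whether it differed between 0.5 to 1 h and 1.5 to 2 h. The rule took every transected and sham library of the series S1, S2 and S3 at 0.5, 1, 1.5 and 2 h, which gave 20 of the 111 libraries of the study and 20 of the 105 of its time series. Libraries that shared series and hour, 1 transected and 1 sham, formed a pair. There were 10 pairs: 5 at 0.5 and 1 h, and 5 at 1.5 and 2 h. S1 and S2 gave a pair at each of the 4 hours, and S3 gave a pair at 1 h and at 2 h.

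The study sequenced polyA+ RNA from the spinal cord of *X. laevis* tadpoles at NF stage 50, a stage that regenerates the cord, to follow the transcriptome after spinal cord injury (SCI). In transected animals, the skin and muscle were opened at the mid-thoracic level and the cord was then cut. In sham animals, the skin and muscle were opened at the same level and the cord was left intact. The labels give no genetic change and no drug for these 20 libraries, and all of them hold the section of cord caudal to that level. Each library was a pool of cords from several animals. S1 and S2 came from 1 fertilization and S3 from another batch of animals. The hours of a series were drawn from the same sets of operated animals and served as replicates, so the p-values measure the spread between pairs of these 3 series and not between batches of animals.

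Wounding induces immediate early genes within minutes in many tissues. These genes, with the transcription factors Fos, Jun and Egr1 as the classic examples, need no new protein to be switched on, and their transcripts decay quickly. Genes that depend on the newly made factors follow later, together with cytokine and growth programs, and in regenerating tadpoles neural stem progenitor cells later divide to restore the cord. The sham animals share the opening of skin and muscle, and the paper used them to exclude changes due to damage around the cord. A transected minus sham difference also depends on the level of the sham libraries, which is given below for S1. The files list gene models without symbols, and 0 of their identifiers matched the table of RefSeq genes used here, so the models were not assigned to these classes and the labelled tissue was not checked against marker genes.

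The authors' tables list an expected count for each of 45099 gene models, which is an estimate of the reads from that model. The totals of the 20 libraries lay between 9.96 and 19.3 M (median 12.3 M). The sham library of S3 at 1 h was the deepest of the 20 (19.3 M) and its transected partner held 11.1 M. Spearman correlations of counts between the libraries lay between 0.9475 and 0.9813, and none were identical. A filter modelled on the study's, of at least 5 counts at 4 or more hours in 1 or more conditions, kept 32328 models. The paper reports fewer genes after its own filter. The models kept were tested with edgeR's quasi-likelihood test, with the pair as a block. They were called at a Benjamini-Hochberg adjusted p under 0.05. Because these are bulk samples, fewer cells of a type and less RNA per cell cannot be told apart. Reads that match near-identical copies or homeologs were shared out among them by RSEM, which leaves the values of such models uncertain.

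No gene model was called for a change of the injury effect between 0.5 to 1 h and 1.5 to 2 h (0 of 32328, 0.0%). That change, the transected minus sham difference of the later hours minus that of the earlier hours on the log2 scale, is called the shift here. The unadjusted p was under 0.05 for 2078 models (6.43%), of which 1219 had a more positive and 859 a more negative difference at 1.5 to 2 h. At an unadjusted p under 0.001 there were 60 models, 46 more positive and 14 more negative. The smallest adjusted p was 0.0728, and the 8 models with an adjusted p under 0.1 were all more positive. limma-voom also called 0 models, with 2255 at an unadjusted p under 0.05. DESeq2's Wald test called 18, of which 16 were more positive, with 1111 at an unadjusted p under 0.05. Leaving out the pair of S2 at 1.5 h gave 15 calls in edgeR and leaving out the pair of S1 at 1.5 h gave 1, all more positive, and without series S2 and series S3 there was 1 call each. With hour as a linear term 20 models were called, all more positive, with a robust estimate of the spread 11, 10 of them more positive, and without a filter on low counts 69, 50 more positive and 19 more negative. Other settings called similar numbers in both directions or more negative models: 2 h against 0.5 h in S1 and S2 alone gave 163 more positive and 158 more negative, and S1 alone gave 24 and 126.

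The precision of these estimates limits what a missing call can say. Over the 25268 models with a mean of at least 1 count per M (CPM), the median standard error of the shift was 0.16 on the log2 scale, with 0.11 and 0.36 as its 10th and 90th percentiles. The median size of the shift was 0.13, and 171 models had a shift of at least 1, which is 2-fold. The 95% interval lay within 2-fold in both directions for 22228 of the 25268 models (88.0%). For those models a shift of 2-fold or more lies outside the interval. These intervals are not adjusted for the number of models, and 1858 of the 25268 had an unadjusted p under 0.05.

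Within both times, transected cords differed from sham cords, with more models higher than lower except at 1.5 to 2 h when library totals replaced TMM factors. At 0.5 to 1 h, 417 models were higher after transection (1.29%) and 28 were lower (0.0866%), 445 in all, with median log2 differences of 1.74 and -0.36 among those called. In S1 the sham libraries were low for the 417: relative to the 0 h libraries of S1, their median change was -2.42 at 0.5 h and -1.84 at 1 h, and the transected libraries stood at -0.88 and 0.51. The 417 were chosen partly by these pairs, which favours low sham values in them. Over all models tested, the same sham libraries stood at 0.01 and 0.04. The sham libraries of S2 and S3 at these hours lay between -0.15 and 1.12 and the transected libraries between 1.005 and 2.015. The changes in S3 rest on 1 library at 0 h. Without both earlier pairs of S1, 92 models were called higher. At 1.5 to 2 h, 841 models stood higher (2.6%) and 338 lower (1.05%), 1179 in all, with medians of 0.79 and -0.38. In the mean over all 10 pairs, 2259 models were called (6.99%), 1466 higher and 793 lower. The larger number of calls at 1.5 to 2 h is not a test of a difference between the times, for which the shift is the test.

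Models that were higher at 0.5 to 1 h mostly remained higher at 1.5 to 2 h, by a smaller median difference. Their median log2 difference was 1.74 at 0.5 to 1 h, where they were chosen, and 1.12 at 1.5 to 2 h. From the earlier to the later hours, their median log2 change was 0.04 in transected and 0.55 in sham cords, with the series as block. The smaller difference thus went with higher later sham values, and the choice of the 417 favours low earlier ones. The shift was positive in 21.1% of the 417, beside 51.4% of all models. Choosing models by a high earlier difference itself favours a negative shift, so this is no test of a decline. The 841 chosen at 1.5 to 2 h showed the reverse, with medians of 0.37 at 0.5 to 1 h and 0.79 at 1.5 to 2 h. Their shift was positive in 81.6%. Of the 417, 225 were also called higher in the 5 later pairs, which is 54.0% of the earlier list, beside 2.6% of all models. They make up 26.8% of the later list, beside 1.29% of all models called higher at 0.5 to 1 h. The calls at both times came from the same fit with a shared spread per model, which by itself favours an overlap. None of the 417 was called lower in the later pairs, and 98.6% of them had a positive difference at 1.5 to 2 h, where 48.8% of all models did. Among the 28 lower models, 3 were called lower at 1.5 to 2 h (10.7%, beside 1.05% of all models). The models called lower were long at either time. Their median effective length was 6651 bases over the 24 of the 28 with a length at 0.5 to 1 h. At 1.5 to 2 h it was 5899 bases over 308 of the 338, against 2538 bases over the 19853 models with a length. The models called higher were shorter, with medians of 1910 bases over 129 of the 417 and 1803 bases over 567 of the 841. A length was computed only for models with at least 1 fragment per kilobase per M in each of the 20 libraries. That covered 30.9% of the 417, 67.4% of the 841 and 91.1% of the 338, beside 61.4% of all models. The medians therefore compare unequal shares of the lists. The cause of these differences in length was not tested. With library totals in place of TMM factors, the calls at 1.5 to 2 h split into 668 higher and 932 lower, and the lengths of those lists were not examined.

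**Figure D1:**
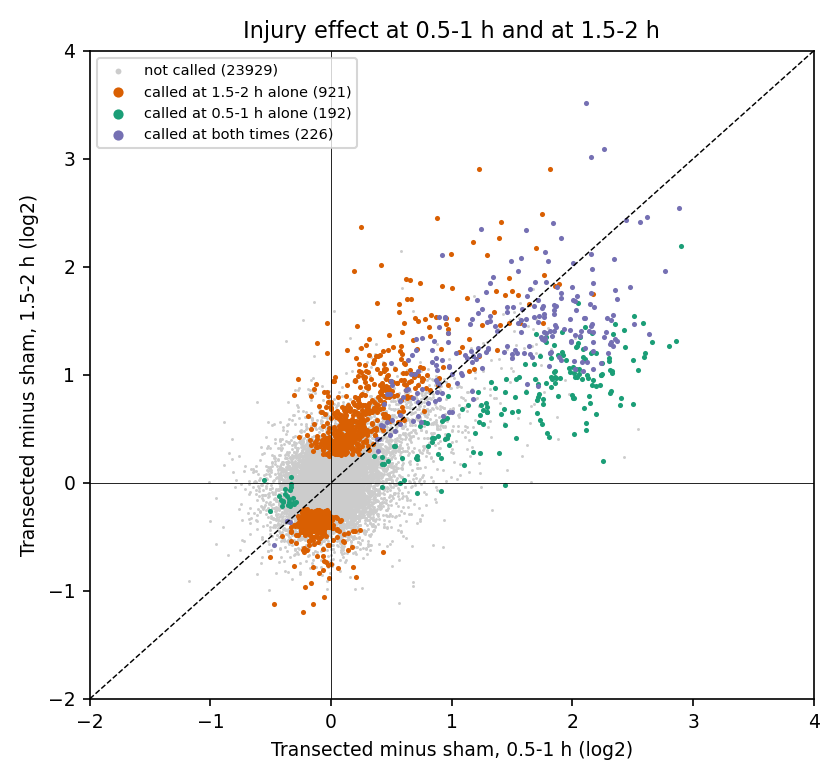
Log2 difference between transected and sham libraries at 0.5 to 1 h (x axis) and at 1.5 to 2 h (y axis) for the 25268 gene models with a mean of at least 1 CPM, 1 point per model; the dashed line marks equal differences. The 226 models called at both times lie mostly above 0.5 on both axes, the 192 called at 0.5 to 1 h alone lie mostly below the line, and the 921 called at 1.5 to 2 h alone lie mostly within 1 of zero on the x axis.

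The counts at each time depended on single pairs and on the block. Without the pair of S1 at 1 h the 445 calls at 0.5 to 1 h fell to 126, without the pair of S2 at 0.5 h to 221, without both earlier pairs of S1 to 94, without series S1 to 119 and without series S2 to 245. Without the pairs of S1 at 1.5 h and 2 h or the pair of S2 at 1.5 h, the 1179 calls at 1.5 to 2 h fell to 672, 623 and 748. They fell to 791 without the pair of S3 at 2 h, to 418 without series S1 and to 496 without series S2. With the series as block in place of the pair the earlier count was 24 and the later one 528, and with no block they were 0 and 25.

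Hour by hour, the number of models that differed was largest at 2 h. At 0.5 h, 54 models were called (0.167%), all of them higher after transection, from 2 pairs. At 1 h, 126 were called (0.39%), 124 higher and 2 lower, from 3 pairs. At 1.5 h, 83 were called (0.257%), 72 higher and 11 lower, from 2 pairs. At 2 h, 507 were called (1.57%), 399 higher and 108 lower, from 3 pairs. The hours differ in their number of pairs, so these counts are not on an equal footing. No model was called by edgeR for the step from 0.5 to 1 h, from 1 to 1.5 h or from 1.5 to 2 h, with 755, 1372 and 1573 at an unadjusted p under 0.05.

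A joint test of whether the injury effect differed among the 4 hours called 7 models (0.0217%), with 1304 at an unadjusted p under 0.05. In 4 of the 7, the transected minus sham difference rose with time, from between -0.40 and 0.18 at 0.5 h, through -0.04 to 0.38 at 1 h and 0.425 to 0.60 at 1.5 h, to between 0.965 and 1.61 at 2 h on the log2 scale. In the other 3, the difference stayed positive through 1.5 h, at 0.39 to 0.80, 0.50 to 0.99 and 0.56 to 0.82, and stood between -1.125 and -0.70 at 2 h. The identifiers of these 3 models and of the model with the smallest p of a negative shift span 4 numbers of the annotation's numbering, and whether these 4 models share reads was not tested. The count of 7 became 1 without the pair of S1 at 2 h, of S2 at 0.5 h, of S2 at 2 h or of S3 at 2 h, 3 without S1 at 1.5 h and 4 without S1 at 0.5 h. It rose to 17 without S2 at 1 h, and to 45, 13 and 12 without S1, S2 and S3, with 4, 2 and 2 of the 7 among the calls.

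The values of 4 models show both courses in single libraries. The rule for named genes required an adjusted p under 0.05 for the shift, which no model met. The models printed instead have the smallest p of the shift and the smallest p of the 4-hour test in each direction, a choice made with their values in view. They are described by identifier, since the files do not pair identifiers with names. The shifts given below within S1, S2 and S3 are later minus earlier means of the pair differences in log2 CPM, without a fit. On the deposited TPM scale, which takes length into account, their mean levels over the 20 libraries were 11.6 (Xelaev18037806m.g), 17.0 (Xelaev18036076m.g), 16.3 (Xelaev18037604m.g) and 31.9 TPM (Xelaev18037603m.g).

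Xelaev18037806m.g had the smallest p of the shift. Its transected libraries held 14.5 and 11.9 CPM at 0.5 h (S1 and S2), 14.3, 12.3 and 8.59 CPM at 1 h (S1, S2 and S3), 20.4 and 19.5 CPM at 1.5 h, and 34.8, 29.1 and 21.4 CPM at 2 h. Its sham libraries, in the same order, held 14.0 and 17.0, then 15.2, 13.7 and 7.69, then 14.7 and 11.9, and then 15.8, 13.1 and 10.2 CPM. The 3 transected libraries at 2 h exceeded every sham library, and all 5 later pairs had a larger transected minus sham difference (0.47 to 1.14 on the log2 scale) than the 5 earlier pairs (-0.51 to 0.16). The fitted difference went from -0.12 in the earlier to 0.915 in the later pairs, and the shift was 1.04 ± 0.16 (SE; 95% interval 0.70 to 1.37; edgeR adjusted p = 0.0728), with 0.82, 1.26 and 0.90 within S1, S2 and S3. The 4-hour test gave an adjusted p of 0.0352.

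Xelaev18036076m.g had the smallest p of the 4-hour test (edgeR adjusted p = 0.000697). Its transected libraries held 40.5 and 17.7 CPM at 0.5 h, 42.5, 26.1 and 20.4 CPM at 1 h, 65.6 and 33.2 CPM at 1.5 h, and 114.0, 66.6 and 54.5 CPM at 2 h, and its sham libraries 42.5 and 30.1, then 38.2, 23.8 and 16.1, then 43.3 and 22.8, and then 33.4, 22.4 and 19.5 CPM. In each series the highest transected value was that at 2 h, and the pairs did not overlap between 0.5 to 1 h (-0.76 to 0.34) and 1.5 to 2 h (0.54 to 1.77). The shift was 1.23 ± 0.23 (SE; edgeR adjusted p = 0.119), with 1.14, 1.36 and 1.13 within S1, S2 and S3.

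Xelaev18037604m.g had the smallest p among models with a negative shift. Its transected libraries held 15.8 and 15.5 CPM at 0.5 h, 11.7, 7.6 and 21.3 CPM at 1 h, 6.27 and 6.51 CPM at 1.5 h, and 2.84, 4.29 and 6.7 CPM at 2 h, and its sham libraries 11.7 and 11.3, then 7.36, 9.05 and 12.5, then 7.56 and 8.16, and then 4.9, 7.25 and 13.9 CPM. Transected values were above their sham partner in 4 of the 5 earlier pairs and below it in all 5 later pairs. The shift was -1.07 ± 0.21 (SE; edgeR adjusted p = 0.142), with -1.06, -0.63 and -1.79 within S1, S2 and S3.

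Xelaev18037603m.g had the smallest p of the 4-hour test among models with a negative shift (edgeR adjusted p = 0.0262). Its transected libraries held 34.7 and 44.1 CPM at 0.5 h, 29.0, 30.2 and 62.9 CPM at 1 h, 17.2 and 16.5 CPM at 1.5 h, and 6.56, 9.17 and 12.1 CPM at 2 h, and its sham libraries 20.5 and 24.7, then 14.8, 21.0 and 23.4, then 8.37 and 10.6, and then 8.78, 15.8 and 21.3 CPM. Transection stood above sham in every pair up to 1.5 h (0.52 to 1.42 on the log2 scale) and below it in all 3 pairs at 2 h (-0.81 to -0.41), so the earlier and later pairs overlapped. The shift was -0.99 ± 0.28 (SE; edgeR adjusted p = 0.561).

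**Figure D2:**
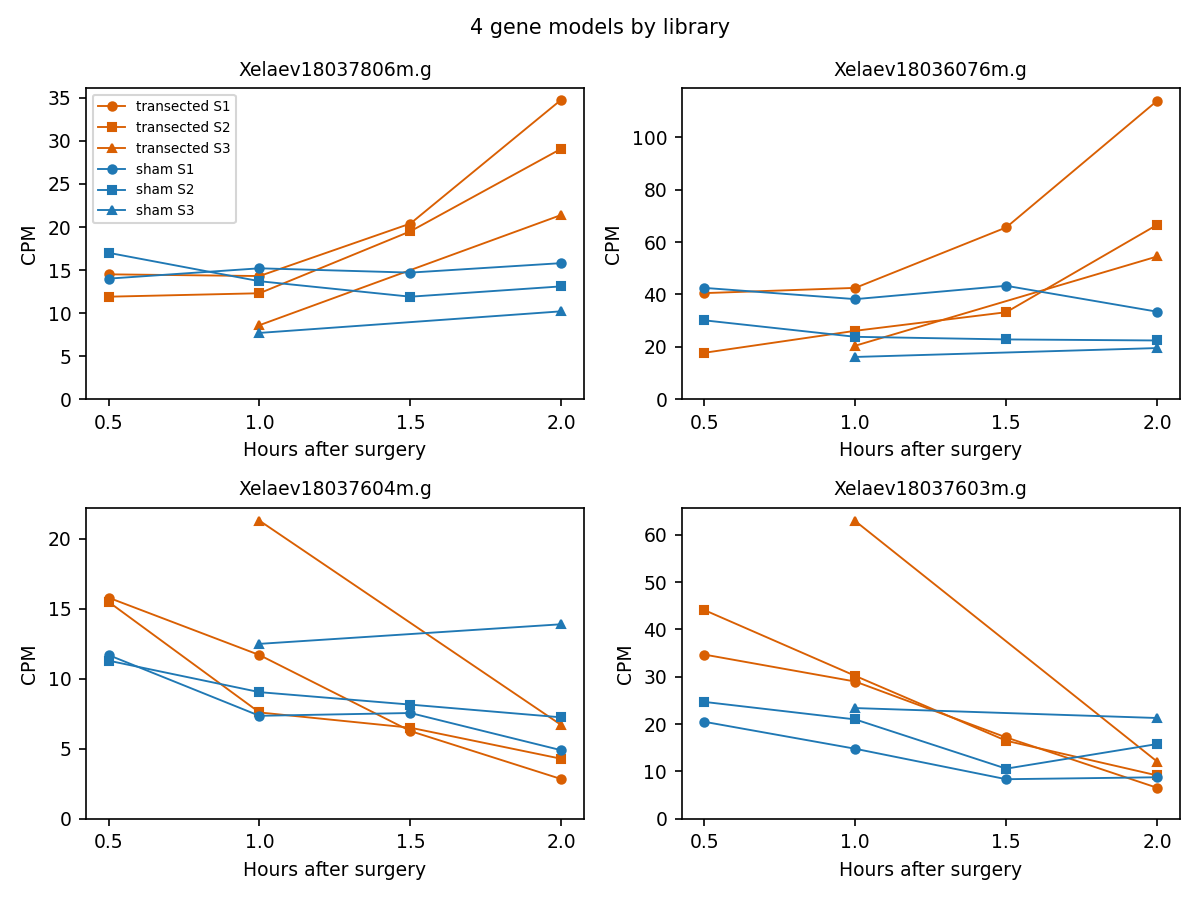
TMM-scaled counts per M (CPM, y axis from 0) against hours after surgery for 4 gene models, 1 point per library; orange marks transected and blue sham libraries, with circles for S1, squares for S2 and triangles for S3. Transected values of the upper models reach 21.4 to 34.8 and 54.5 to 114.0 CPM at 2 h, above every sham library of that hour, and those of the lower models fall below their sham partners by 2 h.

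The 3 to 6 h libraries, which the shift did not use, were taken from S3 and S4 (10 libraries, 5 pairs). S3 gave a pair at each hour from 3 to 6 h and S4 a pair at 6 h. The S3 pairs came from the same sets of operated animals as the S3 pairs up to 2 h. The comparison with the earlier hours therefore does not rest on independent batches. At 3 to 6 h, transected cords had 827 models higher than sham (2.56%) and 229 lower (0.708%). The rising models stood higher at that time, by 1.80 ± 0.13 (SE; edgeR adjusted p = 1.1e-06) for Xelaev18037806m.g and by 2.11 ± 0.10 (SE; edgeR adjusted p = 6.52e-08) for Xelaev18036076m.g on the log2 scale. Xelaev18037604m.g and Xelaev18037603m.g both stood at -0.77 (edgeR adjusted p = 0.00123 and 0.00508). Of the 417 models higher at 0.5 to 1 h, 55 were called higher at 3 to 6 h (13.2%), and of the 841 higher at 1.5 to 2 h, 243 were (28.9%), beside 2.56% of all models. The 55 make up 6.65% of the 827, beside 1.29% of all models called higher at 0.5 to 1 h. The 243 make up 29.4% of them, beside 2.6% of all models called higher at 1.5 to 2 h. In the other direction, 9 of the 417 (2.16%) and 11 of the 841 (1.31%) were called lower, beside 0.708% of all models.

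The 827 models that were higher at 3 to 6 h showed a small difference in the first hour and a larger one at 2 h. Their median transected minus sham difference was 0.12 at 0.5 h, 0.12 at 1 h, 0.21 at 1.5 h and 0.37 at 2 h on the log2 scale, against 0.68 at 3 to 6 h, where they were chosen. In the earlier pairs the median over these models was 0.12 and 0.11 at 0.5 h (S1 and S2) and 0.13, 0.19 and 0.03 at 1 h (S1, S2 and S3). In the later pairs it was 0.175 and 0.24 at 1.5 h and 0.31, 0.43 and 0.32 at 2 h. The 5 later pairs averaged 0.30 ± 0.095 and the 5 earlier pairs 0.12 ± 0.06 (SD, n = 5), with an overlap of 1 earlier pair, S2 at 1 h, above 1 later pair, S1 at 1.5 h. The shift was positive in 74.4% of the 827 with a median of 0.17, beside 51.4% and 0.01 over all models. Changes were also taken from the 0 h libraries of each series, which both conditions share and of which S3 has 1. The median change of these models was 0.13 to 0.31 in the earlier and 0.30 to 0.57 in the later transected libraries. In the sham libraries it was 0.0 to 0.20 and 0.10 to 0.20.

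The 229 models that were lower at 3 to 6 h had smaller differences in the first 2 h. Their median difference went from -0.05 in the earlier to -0.14 in the later pairs, and the shift was positive in 34.9%. The pair medians ranged from -0.11 to 0.04 in the earlier and from -0.24 to -0.03 in the later pairs, and so overlapped.

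**Figure D3:**
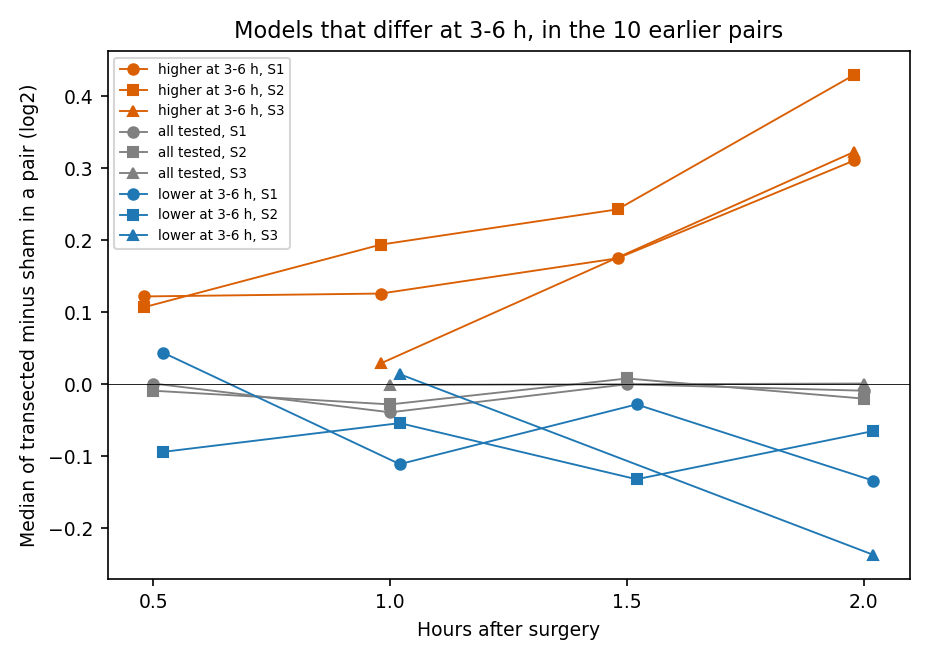
Median transected minus sham log2 difference in each of the 10 pairs (y axis) against hours after surgery for the 827 models higher at 3 to 6 h (orange), the 229 lower at 3 to 6 h (blue) and all 32328 tested (grey); symbols mark the series. The orange medians go from 0.03 to 0.19 at 0.5 and 1 h to 0.31 to 0.43 at 2 h, while the grey medians stay within 0.04 of zero.

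Compared within each condition, the change from 0.5 to 1 h to 1.5 to 2 h was called in 354 models in transected cords (1.1%), 292 that rose and 62 that fell, and in 1 model in sham cords (0.00309%), which rose, with 2051 sham models at an unadjusted p under 0.05. This fit used the series as a block, since the pair block takes out the change over hours. The difference between the numbers is not a test of a difference between the conditions, for which the shift is the test. The median changes of the 292 were 0.73 in transected and 0.31 in sham cords on the log2 scale, the former used to choose them. At 3 to 6 h, 136 of the 292 (46.6%) were called higher in transected than in sham cords, beside 2.56% of all models. Another 14 of the 292 (4.79%) were called lower, beside 0.708% of all models. Of the 62, 11 (17.7%) were called lower and 2 (3.23%) higher. The 354 calls became 78 without series S1, 99 without series S2 and 153 without the 0.5 and 1 h libraries of S1, and the sham count became 0 without S1 or S2 or those libraries and 8 without S3.

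The series gave different numbers of calls when fitted alone, which is not a test of a difference between them. Within S1, 150 models were called for the shift (0.464%), 24 more positive and 126 more negative. Within S2, edgeR called 0 models (0.0%), with 900 at an unadjusted p under 0.05 and a smallest adjusted p of 0.301. The median shift within S2 was 0.45 for the 24 and -0.39 for the 126. S3 has 1 pair at each time and gives a difference with no test.

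The 24 models with a more positive shift within S1 also had larger median differences at the later hours in the series that did not choose them, which was not tested. Their median transected minus sham difference was 0.14 and 0.46 in S2 at 0.5 and 1 h and 0.65 and 1.03 at 1.5 and 2 h, and in S3 it was 0.29 at 1 h and 0.90 at 2 h, on the log2 scale. At 3 to 6 h, 14 of the 24 (58.3%) were called higher in transected cords, beside the background of 2.56%, and 1 (4.17%) lower, beside 0.708%.

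The 126 models with a more negative shift within S1 did not keep that direction in S3, which has no pair at 0.5 h or 1.5 h. Their median difference in S1 was 2.23, 3.06, 1.36 and 0.48 at 0.5, 1, 1.5 and 2 h. In S2 it was 2.35, 0.45, 0.41 and 0.91 at those hours, and in S3 it was 0.64 at 1 h and 2.12 at 2 h. The median was positive in every pair, with the largest differences in S1 at 0.5 h and 1 h, S2 at 0.5 h and S3 at 2 h. For these models the sham libraries of S1 stood apart: relative to the 0 h libraries of S1, their median change was -3.63 at 0.5 h and -2.52 at 1 h, against -0.175 at 1.5 h and -0.24 at 2 h, while the sham libraries of S2 and S3 lay between -0.28 and 1.40. Their choice by a more negative shift within S1 favours low sham values at its earlier hours. Over all models tested, the S1 sham libraries stood at 0.01 at 0.5 h and 0.04 at 1 h. For the 126, the transected library of S1 at 0.5 h was also low, at -1.15, while the other transected libraries lay between -0.17 and 2.255. At 3 to 6 h, 4 of the 126 were called higher (3.17%, close to the 2.56% of all models) and 0 lower, where 0.708% of all models were. Of the 417 models higher at 0.5 to 1 h, 79 were among these 126 of 32328, and the low S1 sham levels given above held for the median of the whole list of 417. Both lists were chosen with the earlier pairs of S1, which favours an overlap between them. Why these models were low in the S1 sham libraries was not tested.

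**Figure D4:**
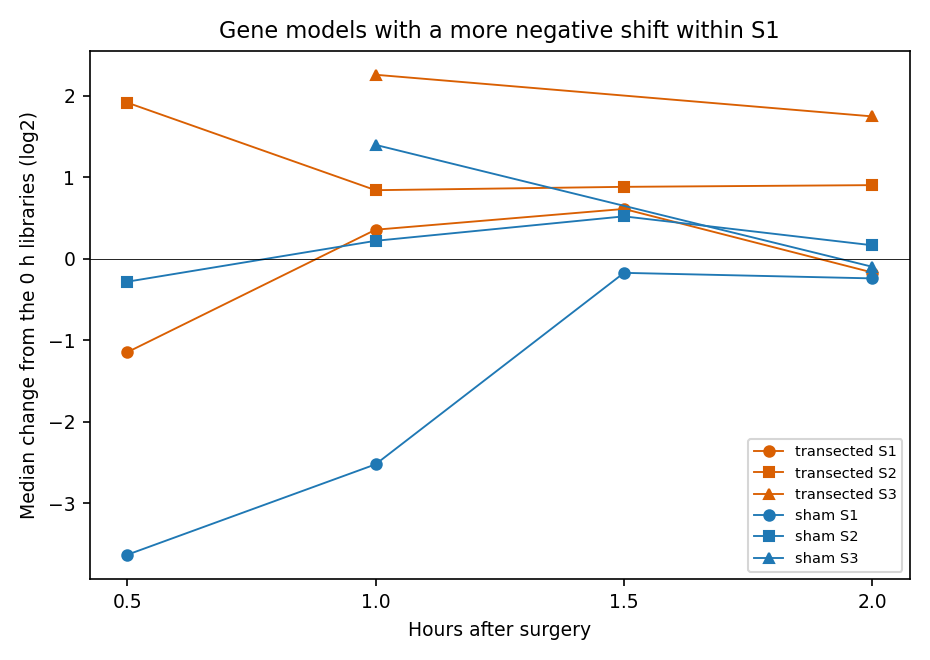
Median log2 change from the 0 h libraries of the same series (y axis) against hours after surgery for the 126 models with a more negative shift within S1, 1 point per library; orange marks transected and blue sham libraries, with circles for S1, squares for S2 and triangles for S3. The sham libraries of S1 lie at -3.63 and -2.52 at 0.5 and 1 h, and the transected library lies above the sham library of the same series at every hour. S3 has 1 library at 0 h.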

How the data were processed

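The authors mapped paired reads of polyA+ libraries with Bowtie and RSEM to Xenbase's v9.1 transcriptome of *X. laevis*. Each library has its own deposited table, with an expected count per gene model (RSEM's estimate of its reads, without normalization). The deposited TPM values (transcripts per M, scaled to length and library total) were used to describe levels, and the deposited FPKM values (fragments per kilobase per M) served with the counts to compute effective length. 0 of the identifiers matched the 44456 genes of the RefSeq table.

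Expected counts were rounded. Models with 5 or more counts at 4 or more hours in at least 1 condition over the 105 time series libraries were kept (32328 models, 99.98% of the counts of the 20 libraries). An hour counted if any of its libraries reached 5 counts, and the shared 0 h libraries counted for both sham and transected animals. The main test was that of edgeR 4.0.16 under R 4.3.3 (TMM factors, two-sided quasi-likelihood F-test, Benjamini-Hochberg adjustment over all models tested) with the pair as a block and the surgery effect at 0.5 to 1 h and at 1.5 to 2 h. DESeq2 1.42.0 and limma 3.58.1 were alternatives. Further alternatives changed the scaling, the filter, the block, the time scale and the pairs or series included. Pairs come from the labels' series and hours. After group means were removed, libraries of the same pair correlated by 0.68 on average (0.38 to 0.79, n = 10), those of the same series at other hours by 0.59 (n = 26) and those of other series by -0.34 (n = 64), so that most of the likeness within a pair was shared by the series. Removing group means by itself makes values between series negative when those within a series are positive. The common dispersion had a square root of 0.12. Log2 CPM for medians per pair used a prior count of 2. Summaries and figures were made in Python 3.11.15 with pandas 2.3.3, numpy 2.4.6 and matplotlib 3.10.9. The named genes were to be the first 2 models of each direction with an adjusted p under 0.05 for the shift, a mean of at least 1 CPM and no overlap between pairs, and no model met this. The comparison, the lists and the tests were chosen with earlier results of these data known. Gene lists and marker lists that need symbols, and the 6 libraries of the mTOR inhibition experiment, were not used.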

Additional observations from a re-analysis of the deposited data

Results flagged for a closer look

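The transected library of S3 at 1 h had the lowest total among the 5 transected libraries at 0.5 and 1 h, at 11.1 M expected counts, and its distance from the next library was large for the range of that group. It was the only such value among 46 groups of libraries or pairs examined, and chance flags about 1 in 20 groups.

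The injury effect differed among the 4 hours for 7 models by edgeR's test of that difference, as described above. Of the models printed, these are Xelaev18037806m.g (adjusted p = 0.0352), Xelaev18036076m.g (adjusted p = 0.000697) and Xelaev18037603m.g (adjusted p = 0.0262). The first 2 rose in transected cords, and the third changed sign between 1.5 and 2 h.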

How the results depend on the processing

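The count of 0 for the shift held with DESeq2's size factors, library totals, filterByExpr, a mean of at least 1 CPM and limma-voom. A required 2-fold change had to give 0, since it only narrows the main calls. The count also held without series S1, without the earlier pairs of S1 and within S2. It became 69 without a filter on low counts, 18 in DESeq2's Wald test, 11 with a robust spread, 20 with hour as a linear term and 321 (163 more positive, 158 more negative) between 2 h and 0.5 h in S1 and S2 alone, which has 8 libraries. It was 150 within S1, 1 without S2 and 1 without S3. Leaving out each pair gave 0 to 15. Without the replicate block the shift gave 0 calls, the 0.5 to 1 h comparison 0 in place of 445 and the 1.5 to 2 h comparison 25 in place of 1179. With the series as block in place of the pair these were 0, 24 and 528.

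At 0.5 to 1 h the count was 967 without a filter, 264 with a robust spread, 119 without S1, 245 without S2, 94 without the earlier pairs of S1, and 126 to 555 when each pair was left out. At 1.5 to 2 h it was 2048 without a filter, 326 with a required 2-fold change, 418 without S1, 496 without S2, and 623 to 1286 when each pair was left out. With library totals it split into 668 higher and 932 lower, in place of 841 and 338, and the TMM factors differed by -0.06 (log2) between transected and sham libraries at that time. The change within transected cords (354) was 78 without S1, 99 without S2 and 153 without the earlier libraries of S1, and that within sham cords (1) was 0 with DESeq2's size factors, 0 without S1, 0 without S2, 0 without those libraries and 8 without S3. The 4-hour test (7) gave 1 with filterByExpr, 45, 13 and 12 without S1, S2 and S3, 4 without the earlier pairs of S1, and 1 to 17 when each pair was left out. The causes of these changes were not tested.

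The shifts of the 4 printed models kept their direction in all 28 alternatives. These models were chosen by their p in the same libraries that the alternatives refit, so a kept direction adds little. Xelaev18037806m.g ranged from 0.82 to 1.40 and passed the threshold in 7, Xelaev18036076m.g from 1.06 to 2.09 and in 5, Xelaev18037604m.g from -1.37 to -0.67 and in 4, and Xelaev18037603m.g from -1.40 to -0.51 and in 2. The ranges hold fitted shifts only, and they mix unlike measures, since 1 setting is a slope per hour. The values 1.40, 2.09 and -1.40 come from 2 h against 0.5 h in S1 and S2. Alternatives with a robust spread, a minimum of 1 CPM or without the earlier pairs of S1, and all those of the 4-hour test, were chosen after seeing the data. The main limits are 5 pairs at each time, 3 series of which 2 share a fertilization, and gene models without symbols.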

Other observations

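Across the 25268 models with a mean of at least 1 CPM, the shift of S1 and that of S2 correlated by r = 0.14, that of S1 and S3 by -0.02 and that of S2 and S3 by 0.03. The injury effect itself was more alike between series, with r of 0.51, 0.22 and 0.30 at the earlier hours and 0.45, 0.34 and 0.295 at the later hours for the same series. These are correlations across genes, which are not independent replicates, and each series' shift is made from its own libraries. Over the 777 of these models that were higher at 3 to 6 h, the shift correlated by 0.24 between S1 and S2, 0.17 between S1 and S3 and 0.26 between S2 and S3. Over the 1306 that were higher in the mean of all 10 pairs, it correlated by 0.535 between S1 and S2, -0.31 between S1 and S3 and -0.13 between S2 and S3.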
